A study of Mus musculus with 4 samples.

Results

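A set of 10 genes of the fat cell was followed in mouse melanoma tumours: Cebpa, Lpl, Fabp4, Scd1, Dgat2, Cidea, Cidec, Pnpla2, Adipoq and Car3. They were chosen by name, because fat is a main site of vascular adhesion protein 1 (VAP-1), and with earlier results of these data known. Every probe that the platform annotation assigns to them was taken, which gave 17 of 46632 probes. The tumours grew from the mouse melanoma line B16-F10-luc-G5, which carries luciferase. Its cells were placed under the skin of the abdomen and removed on day 10. Of the hosts, 2 were VAP-1 -/- mice (KO, replicates 1 and 2) and 2 were wild-type mice (WT, replicates 2 and 3), with 1 Illumina bead array per tumour. All 4 hosts received the same cells, so the deletion lay in the host and not in the injected line. The sources used here do not give strain, sex or age of the mice.

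Fat cells take up fatty acids, join them to glycerol as triglyceride, store that in a single large droplet and release it again as fatty acids when energy is needed. The programme is switched on by the transcription factors PPARγ and C/EBPα, and mature fat cells also secrete hormones known as adipokines. VAP-1, encoded by Aoc3, is a copper amine oxidase on the surface of fat cells, smooth muscle and vessel lining. Subcutaneous tumours lie beside the fat, thin muscle and skin of the body wall.

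RefSeq promoter windows, from 250 bases before to 50 bases after an annotated start site, were found for 4 of the 10 genes. Those of Cebpa, Pnpla2 and Adipoq are printed because the probes of these genes had 3 different patterns over the arrays, described with their values further on. Capitals mark matches on either strand to 4 short patterns: the TATA box TATAAA (in 13.6% of all 32851 windows), the box CCAAT (37.4%), the GC box GGGCGG (35.7%) and the C/EBP-type pattern TTNNGNAA (40.7%).
Cebpa (GRCm38.p6, chr7:35119043-35119342, plus strand): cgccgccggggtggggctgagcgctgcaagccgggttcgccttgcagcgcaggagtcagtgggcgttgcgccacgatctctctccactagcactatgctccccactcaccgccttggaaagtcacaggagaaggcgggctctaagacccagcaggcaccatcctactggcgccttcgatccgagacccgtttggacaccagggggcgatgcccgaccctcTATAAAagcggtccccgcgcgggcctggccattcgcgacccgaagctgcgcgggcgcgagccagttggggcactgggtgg
Pnpla2 (GRCm38.p6, chr7:141454938-141455237, plus strand): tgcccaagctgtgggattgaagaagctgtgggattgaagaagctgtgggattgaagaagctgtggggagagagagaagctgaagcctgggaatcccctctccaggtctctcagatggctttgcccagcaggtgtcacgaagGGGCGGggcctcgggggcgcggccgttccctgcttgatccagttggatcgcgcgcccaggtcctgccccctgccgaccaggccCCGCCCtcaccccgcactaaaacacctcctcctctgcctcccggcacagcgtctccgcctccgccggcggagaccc
Adipoq (GRCm38.p6, chr16:23146286-23146585, plus strand): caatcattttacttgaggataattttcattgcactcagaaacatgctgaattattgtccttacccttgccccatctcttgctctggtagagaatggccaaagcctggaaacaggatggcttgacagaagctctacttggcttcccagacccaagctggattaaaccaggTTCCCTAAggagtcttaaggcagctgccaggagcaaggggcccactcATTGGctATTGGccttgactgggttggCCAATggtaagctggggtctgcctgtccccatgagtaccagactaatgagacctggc
The Cebpa window held TATAAA starting 30 bases before the start site, and none of the other patterns. The Pnpla2 window held GGGCGG on each strand, 109 and 26 bases before the start site, and no TATAAA. The Adipoq window held 3 CCAAT matches within its last 34 bases before the start site and 1 TTNNGNAA match 81 bases before it. No matches overlapped each other. Such matches describe the letters of the window only.

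Signals are given as log2 of the authors' quantile-normalized intensity, which still contains background, so differences of dim probes are compressed. Probes whose mean over all 4 arrays exceeded the 40th percentile of all probes, a log2 signal of 5.88, were tested. That left 13 of the 17 probes and 9 of the 10 genes, the gene left out being Fabp4. Melanocyte markers were present on all arrays: 8 of 8 had a probe above the filter. Dct, a pigment enzyme gene, had 14.63 and 14.39 on the KO arrays and 14.50 and 14.41 on the WT arrays. The KO minus WT differences of the 8 ran from -0.52 for Tyr to 0.84 for Sox10, with a median of 0.08. Of 10 fat cell markers, 9 had a named probe and 6 of these lay above the filter, while the probes of Plin1, Fabp4 and Lgals12 did not. The summed intensity of these 9 probes was 775.5 and 689.2 on the KO arrays and 771.7 and 585.5 on the WT arrays. Over all tested probes the SD of the log2 difference between arrays was 0.258 for the KO pair and 0.416 for the WT pair. Across genotypes it was 0.421 and 0.410 for KO replicate 2 with WT replicates 2 and 3. For KO replicate 1 with WT replicates 2 and 3 it was 0.475 and 0.495. The WT tumours thus differed from each other about as much as from KO replicate 2.

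Aoc3 had log2 signals of 7.21 and 7.07 on the KO arrays and 7.96 and 7.09 on the WT arrays. WT replicate 3 thus lay between the KO arrays and only WT replicate 2 stood above them. The KO minus WT difference was -0.39 ± 0.31 (SE, n = 2 each), with limma adjusted p = 0.597. It became -0.83 without WT replicate 3 (adjusted p = 0.0483) and 0.05 without WT replicate 2. The second Aoc3 probe differed by -0.06 ± 0.13. No source used here places these probes on the gene or on its deletion, so Aoc3 does not check the genotype labels, and groups are named as labelled.

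None of the 13 member probes passed an adjusted p of 0.05 in the limma fit over 27979 probes, where 0% of all probes passed. Their adjusted p-values lay between 0.123 and 0.865. At an unadjusted p under 0.05, 1 of 13 was higher in KO tumours (9.27% of all probes) and 0 of 13 lower (7.05% of all probes). That 1 probe, the second of Car3, passed the filter only through its KO signals. Both KO arrays lay above both WT arrays for 6 of 13 (23.6% of all probes) and below them for 1 of 13 (25.6% of all probes). The members were chosen with earlier results of these data known, so these counts only describe them. The counts at the unadjusted threshold moved with the scaling of the arrays. After median scaling 6 of 13 were higher (13.4% of all probes) and 0 of 13 lower (0.44% of all probes), and the smallest adjusted p was 0.114. Single differences ran from -0.27 to 0.85, with a median over the 13 probes of 0.27 and of -0.02 over all tested probes. The median over the 13 was 0.04 without WT replicate 3, 0.72 without WT replicate 2 and 0.55 after median scaling. In bulk tumour tissue, a different number of fat cells, different RNA per fat cell and RNA of other cells cannot be told apart.

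**Figure D1:**
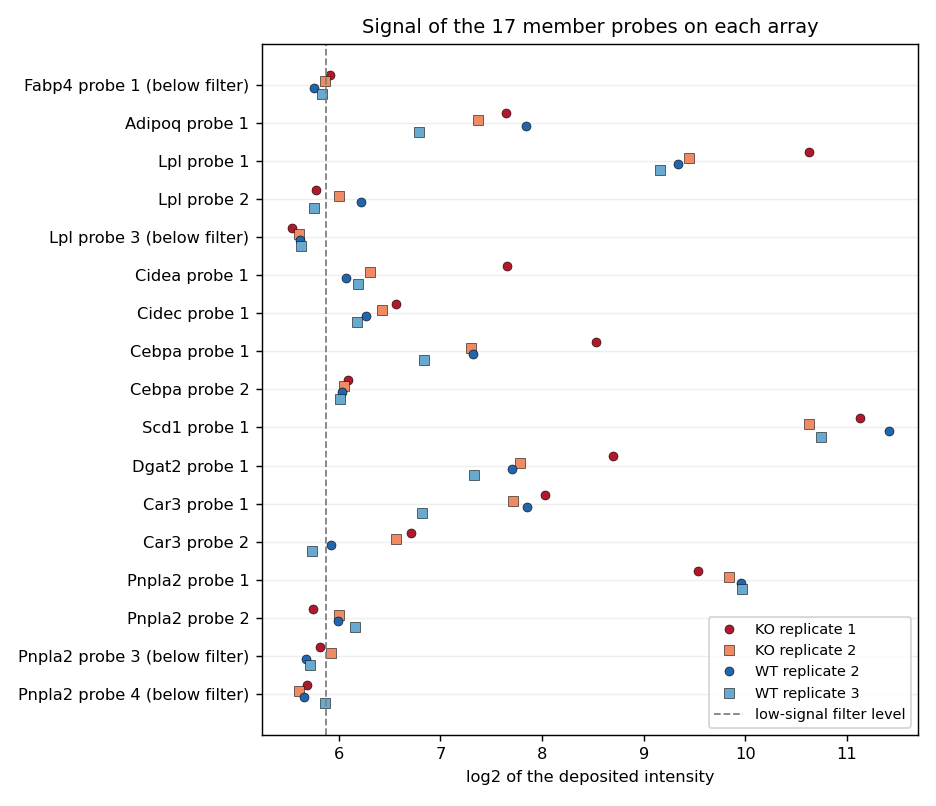
Log2 of the deposited intensity (horizontal axis) of each of the 17 member probes, numbered within a gene from the highest mean signal, with 1 point per array and the filter level of 5.88 as a dashed line. KO replicate 1 stands to the right of the other arrays for Lpl probe 1, Cidea, Cebpa probe 1 and Dgat2, and WT replicate 3 stands to the left for Adipoq and Car3 probe 1.

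Cebpa encodes C/EBPα, the transcription factor that holds fat cells in their mature state and that is also made by myeloid cells, liver and epidermis. Its brighter probe had log2 signals of 8.53 and 7.30 on the KO arrays and 7.32 and 6.84 on the WT arrays. KO replicate 1 was high, while KO replicate 2 lay at the level of WT replicate 2, so the groups overlapped. The difference was 0.84 ± 0.44 (SE, n = 2 each; 95% interval -0.32 to 2.00; adjusted p = 0.441). Without KO replicate 1 it was 0.22, and without KO replicate 2 it was 1.45. The second Cebpa probe, close to the filter level, ran from 6.05 to 6.09 on the KO arrays and from 6.02 to 6.03 on the WT arrays, a difference of 0.05 ± 0.11.

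Lpl encodes lipoprotein lipase, the enzyme that frees fatty acids from circulating lipoproteins and that fat cells, muscle and macrophages secrete. Its brightest probe had log2 signals of 10.62 and 9.45 on the KO arrays and 9.34 and 9.16 on the WT arrays. Both KO arrays were above both WT arrays, with KO replicate 1 far above and KO replicate 2 by 0.11 above WT replicate 2. The difference was 0.79 ± 0.40 (95% interval -0.27 to 1.84; 1.73-fold; adjusted p = 0.427). It was 0.20 without KO replicate 1 and 1.38 without KO replicate 2. A second, dim probe had 5.78 and 5.998 on the KO arrays and 6.22 and 5.75 on the WT arrays, a difference of -0.10 ± 0.20 with overlapping groups. The third probe lay below the filter, with signals from 5.54 to 5.61 on the KO arrays and from 5.62 to 5.63 on the WT arrays.

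Fabp4 encodes the fatty acid carrier of the fat cell cytosol, an abundant transcript of fat that capillary endothelium and macrophages make as well. Its single probe had 5.91 and 5.86 on the KO arrays and 5.75 and 5.83 on the WT arrays. All 4 values lay within 0.16 of each other and their mean was below the filter, so the probe was not tested.

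Scd1 encodes stearoyl-CoA desaturase, which makes monounsaturated fatty acids in fat, liver and the sebaceous glands of skin. Its probe had 11.12 and 10.63 on the KO arrays and 11.41 and 10.74 on the WT arrays. The arrays alternated, with WT replicate 2 highest and KO replicate 2 lowest. The difference was -0.20 ± 0.29 (95% interval -0.96 to 0.57; adjusted p = 0.783), and it changed sign without WT replicate 2 (0.13) and without KO replicate 2 (0.05).

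Dgat2 encodes an acyltransferase that completes triglyceride synthesis. Its log2 signal was 8.69 and 7.78 on the KO arrays and 7.70 and 7.33 on the WT arrays. The groups did not overlap, and KO replicate 2 was 0.08 above WT replicate 2. The difference was 0.72 ± 0.34 (95% interval -0.16 to 1.61; 1.65-fold; adjusted p = 0.389). Without KO replicate 1 it was 0.27, and without KO replicate 2 it was 1.18.

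Cidea and Cidec encode related proteins of the lipid droplet surface that let small droplets fuse into large ones. Cidea, best known in brown fat and also made in sebaceous glands, had 7.65 and 6.30 on the KO arrays and 6.07 and 6.19 on the WT arrays. KO replicate 1 alone was clearly above the others. The difference of 0.85 ± 0.45 (95% interval -0.34 to 2.04; adjusted p = 0.448) was 0.17 without that array and 1.52 without KO replicate 2. Cidec, which is characteristic of white fat, had 6.56 and 6.43 on the KO arrays and 6.27 and 6.18 on the WT arrays. The Cidec groups did not overlap, with a difference of 0.27 ± 0.12 (95% interval -0.05 to 0.59; adjusted p = 0.373) that ranged from 0.20 to 0.33 when single arrays were left out and was 0.17 after 75th percentile scaling.

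Pnpla2 encodes adipose triglyceride lipase, the enzyme of the first step of fat breakdown. Its brightest probe had 9.54 and 9.84 on the KO arrays and 9.96 and 9.96 on the WT arrays. Both KO arrays were below both WT arrays, and KO replicate 1, the highest array for Lpl, Dgat2, Cidea and Cebpa, was the lowest here. The difference was -0.27 ± 0.15 (95% interval -0.66 to 0.11; adjusted p = 0.452). It was -0.12 without KO replicate 1, -0.42 without KO replicate 2 and -0.03 after median scaling. A second probe, near the filter level, had 5.74 and 6.001 on the KO arrays and 5.99 and 6.16 on the WT arrays, a difference of -0.20 ± 0.15 with overlapping groups. The 2 other Pnpla2 probes lay below the filter.

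Adipoq encodes adiponectin, a hormone secreted by fat cells. Its probe had 7.64 and 7.37 on the KO arrays and 7.84 and 6.79 on the WT arrays. Both KO arrays fell between the WT arrays, which differed from each other by 1.05. The difference was 0.19 ± 0.37 (95% interval -0.78 to 1.16; adjusted p = 0.842). It became 0.72 without WT replicate 2, -0.34 without WT replicate 3 and 0.55 after median scaling.

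Car3 encodes carbonic anhydrase 3, an abundant cytosolic enzyme of fat cells that slow skeletal muscle makes too. Its brighter probe had 8.03 and 7.71 on the KO arrays and 7.85 and 6.82 on the WT arrays. WT replicate 2 lay between the KO arrays and WT replicate 3 stood 1.03 below it, the same order of WT arrays as for Adipoq. The difference was 0.54 ± 0.37 (95% interval -0.43 to 1.498; adjusted p = 0.547), and it was 0.02 without WT replicate 3 and 0.91 after median scaling. The second Car3 probe had 6.71 and 6.56 on the KO arrays and 5.93 and 5.73 on the WT arrays. Here the groups were 0.64 apart at their nearest arrays. The WT mean of 5.83 lay below the filter level of 5.88, so this probe passed the filter only through its KO signals. Its difference of 0.81 ± 0.13 (95% interval 0.45 to 1.16; 1.75-fold) had the smallest p of the 13 probes (unadjusted p = 0.00228, adjusted p = 0.123). Without WT replicate 2 both Car3 probes passed the adjusted threshold, at 1.05 (adjusted p = 0.0388) and 0.90 (adjusted p = 0.0354), in a fit that called 2082 probes in all.

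**Figure D2:**
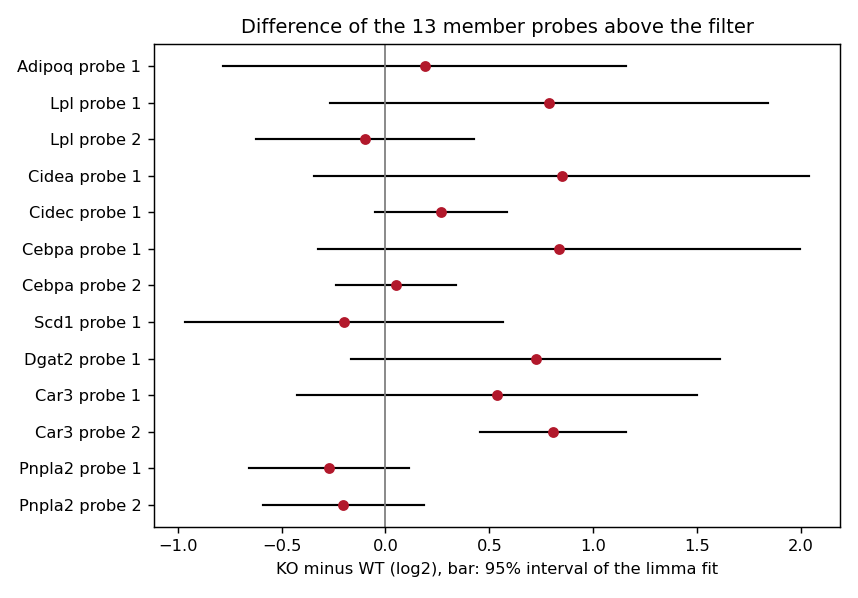
KO minus WT difference in log2 signal (points) with the 95% interval of the limma fit (bars) for the 13 member probes above the filter. The interval leaves out 0 for Car3 probe 2 alone, at 0.45 to 1.16, before any adjustment for the number of probes. Car3 probe 2 passed the filter only through its KO signals.

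**Figure D3:**
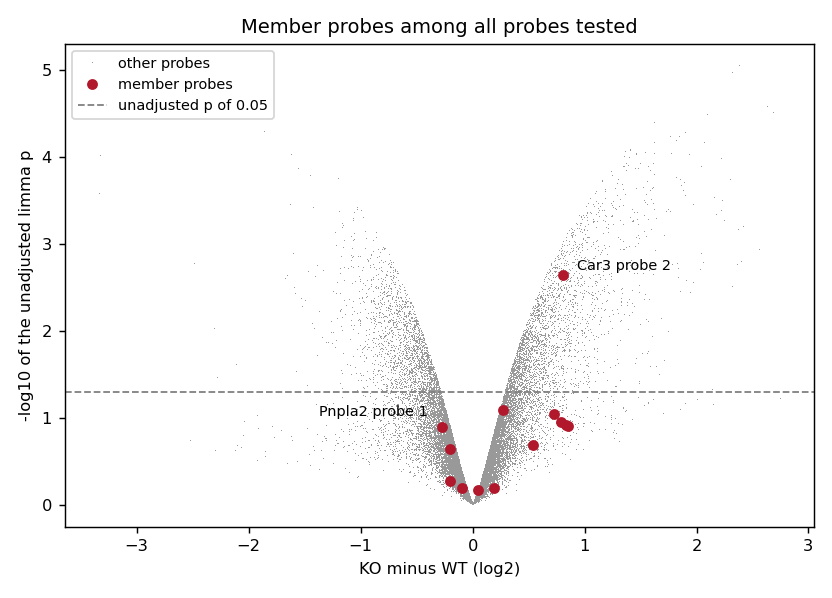
KO minus WT difference (horizontal axis, log2) against -log10 of the unadjusted limma p (vertical axis) for all 27979 tested probes, with the 13 member probes in red. Car3 probe 2 lies above the dashed line of the unadjusted threshold, and the other 12 member probes lie below it.

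The members therefore fell into 3 patterns over the 4 arrays, which were sorted after their values were seen. KO replicate 1 exceeded each other array by more than 0.5 for 4 of 13 probes (Lpl, Dgat2, Cidea and Cebpa), against 1.88% of all tested probes. For KO replicate 2 this was 0 of 13, against 0.122%. WT replicate 2 exceeded WT replicate 3 by more than 0.5 for 3 of 13 (Adipoq, Car3 and Scd1), against 7.8% of all probes, and the reverse held for 0 of 13, against 7.82%. The remaining 6 probes, those of Cidec and Pnpla2 and the dimmer ones of Cebpa, Lpl and Car3, had neither gap. In the first 2 patterns the gap between tumours of 1 genotype exceeded the difference of the group means. For Lpl it was 1.18 between the KO arrays and 0.79 between the means. The patterns were sorted by such gaps, which favours this relation, so it is not a separate result.

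Most markers of keratinocytes and skeletal muscle were brightest on KO replicate 1. All 10 measured keratinocyte markers were above the filter, and their summed intensity was 18231 and 7491 on the KO arrays and 6754 and 5778 on the WT arrays. KO replicate 1 was the brightest array for 9 of the 10, beside 23.5% of all probes. All 13 measured skeletal muscle markers were above the filter, with sums of 11717 and 6026 on the KO arrays and 4779 and 4575 on the WT arrays. KO replicate 1 was brightest for 10 of the 13, beside the same 23.5%. Both KO arrays lay above both WT arrays for 6 of 10 keratinocyte and 8 of 13 muscle markers (23.6% of all probes). They lay below them for 1 of each list (25.6% of all probes). In each list 3 markers were higher at an unadjusted limma p under 0.05 (9.27% of all probes) and 0 lower (7.05%). None passed an adjusted p of 0.05, and the median differences were 1.12 and 0.60. The sebaceous gland list, also of skin, had 8 measured markers, of which Awat1, Prdm1 and Mc5r lay below the filter. Its sums were 1524 and 1393 on the KO arrays and 1423 and 1394 on the WT arrays. KO replicate 1 was brightest for 2 of its 5 markers above the filter. The part of these tissues in the members' differences was not tested.

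Markers of vessels and macrophages were summed in the same way. KO replicate 1 was the brightest array for 2 of 10 endothelial and 2 of 8 macrophage markers above the filter, beside 23.5% of all probes. The part of these cells in the members' differences was not tested. The 10 endothelial markers, all above the filter, had a median difference of -0.27. At an unadjusted p under 0.05, 4 of 10 were lower in KO tumours (Kdr at -0.60, Cldn5 at -0.72, Emcn at -0.73 and Esam at -0.63), beside 7.05% of all probes. At the same threshold 1 of 10 was higher (Vwf at 1.61), beside 9.27% of all probes. None of the 10 passed an adjusted p of 0.05. Their summed intensity was 6037 and 6222 on the KO arrays and 5725 and 5001 on the WT arrays. Vwf, left out after its values were seen, decided that order, since the 9 others summed to 3864 and 4057 on the KO arrays and 4649 and 4529 on the WT arrays. The 9 macrophage markers, of which Msr1 was below the filter, summed to 4119 and 4187 on the KO arrays and 3124 and 3988 on the WT arrays. Lyz2, low on WT replicate 2, made up much of that gap, and the 8 others summed to 2947 and 3045 on the KO arrays and 2669 and 2865 on the WT arrays. Of the 8 macrophage markers above the filter, 0 were higher and 2 lower at the unadjusted threshold (Cd14 at -0.87 and C1qa at -0.45). The shares of all probes were 9.27% and 7.05%. None of the 8 passed an adjusted p of 0.05, and their median difference was 0.12. The 5 measured red blood cell markers, all above the filter, had sums of 34980 and 19957 on the KO arrays and 70980 and 65384 on the WT arrays. At an unadjusted limma p under 0.05, 4 of 5 were lower in KO tumours (7.05% of all probes) and 0 higher (9.27%). Both KO arrays lay below both WT arrays for 4 of 5 (25.6% of all probes). None passed an adjusted p of 0.05, and their median difference was -1.345. Relative to the WT mean, the median over 9 members (1 probe per gene) was 0.70 on KO replicate 1 and 0.20 on KO replicate 2. The same median over keratinocyte markers was 1.76 and 0.37, over muscle markers 0.83 and 0.32, and over 6 fat cell markers 0.33 and 0.07. Those 6 include the members Adipoq and Cidec, so that list is not separate from the members.

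**Figure D4:**
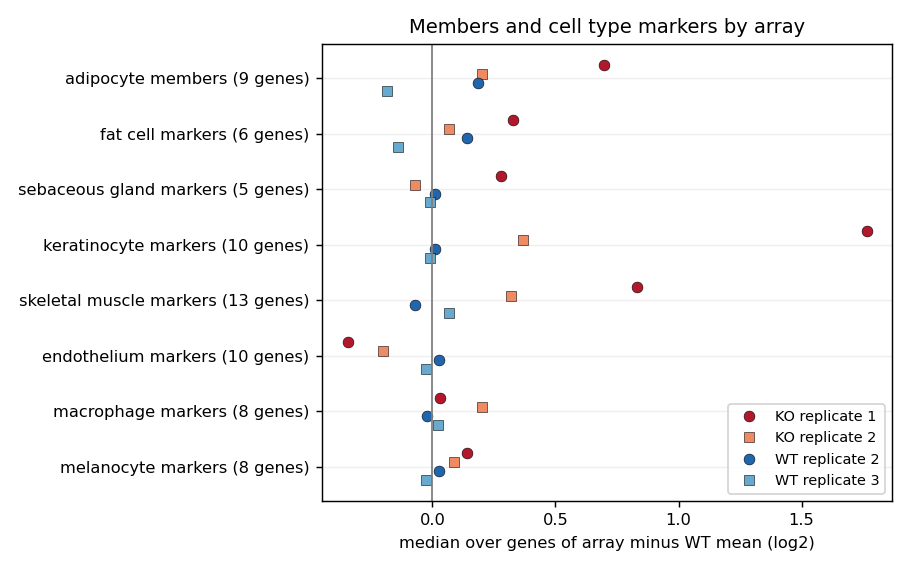
Median over the genes of a list of the array's log2 signal minus the WT mean (horizontal axis), with 1 point per array, for the members and 7 cell type marker lists. The red blood cell list is not shown. KO replicate 1 lies to the right for the members (0.70), keratinocyte (1.76) and muscle (0.83) markers, and KO replicate 2 stays below 0.4 for every list shown.

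The other genes of the fat cell programme went both ways on the deposited scale. Of 70 listed, 62 had a named probe and 51 were above the filter, taking the brightest probe of each. None passed an adjusted p of 0.05. At an unadjusted p under 0.05, 5 of 51 were higher and 5 of 51 lower in KO tumours, close to the shares of all probes given above. After median scaling 10 of 51 were higher and 0 of 51 lower, beside the 13.4% and 0.44% of all probes. Of the 51, 22 had a higher mean in KO tumours and the median difference was -0.06, and KO replicate 1 was the brightest array for 12 of 51, beside 23.5% of all probes. By the gap used for the members, KO replicate 1 exceeded each other array by more than 0.5 for Plin4 (0.92), Cox8b (0.65) and Acacb (0.58). The other genes of the 51 did not reach that gap, and the share of all tested probes was 1.88%. Acacb, a synthesis gene, was named after its value was seen.

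Among genes of the droplet coat, 8 of 11 were above the filter, 1 higher and 1 lower at the unadjusted threshold. For this and the following role groups, the shares of all probes were 9.27% higher and 7.05% lower. Plin4, a perilipin of white fat cells and muscle, had 8.42 and 7.50 on the KO arrays and 6.94 and 6.07 on the WT arrays, a difference of 1.46 ± 0.43 (adjusted p = 0.212). The groups did not overlap, yet KO replicate 1 and WT replicate 2 were 0.92 and 0.87 above the other tumour of their genotype. Plin3, a perilipin found in most cell types, had 8.86 and 9.24 on the KO arrays and 9.87 and 10.23 on the WT arrays, a difference of -1.002 ± 0.20 (adjusted p = 0.140).

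Lipolysis genes other than Pnpla2 numbered 7 above the filter, with 1 higher and 0 lower. Mgll, the monoglyceride lipase of the last step of fat breakdown, had 12.45 and 12.24 on the KO arrays and 11.71 and 11.33 on the WT arrays. Its difference was 0.82 ± 0.18 (adjusted p = 0.148), and its second probe differed by 1.07 ± 0.22. G0s2, an inhibitor of the lipase that Pnpla2 encodes, had 6.75 and 6.78 on the KO arrays and 6.82 and 7.54 on the WT arrays, a difference of -0.42 ± 0.26 that was -0.06 without WT replicate 3, -0.78 without WT replicate 2 and -0.20 after median scaling. Abhd5, the activator of that lipase, and Lipe, the hormone-sensitive lipase of the next step, are named for their role. They differed by -0.37 ± 0.25 and -0.18 ± 0.35, with overlapping groups.

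Of 6 genes of fatty acid uptake above the filter, 1 was higher and 2 were lower. Gpihbp1, the capillary protein that anchors lipoprotein lipase to the vessel wall, had 7.89 and 8.31 on the KO arrays and 9.08 and 9.95 on the WT arrays. Its difference was -1.42 ± 0.33 (adjusted p = 0.164), opposite in sign to that of Lpl, and its second probe differed by -0.83 ± 0.43 with overlapping groups. The 10 endothelial markers went both ways beside it. Both KO arrays lay below both WT arrays for 5 (25.6% of all probes), among them Kdr, Cldn5, Emcn and Esam (-0.60 to -0.73). They lay above both WT arrays for 4 (23.6% of all probes): Vwf (1.61), Egfl7 (0.27), Tek (0.11) and Tie1 (0.03). The part of vessel content in the Gpihbp1 difference was not tested. Fabp5, the epidermal relative of Fabp4 that fat cells and macrophages also make, had 6.55 and 6.59 on the KO arrays and 7.02 and 7.13 on the WT arrays, a difference of -0.50 ± 0.12 (adjusted p = 0.156) that was -0.28 after median scaling. The second Fabp5 probe, below the filter, differed by -0.01 with overlapping groups. The higher gene, Slc27a1, a fatty acid transporter, differed by 0.52 ± 0.14 and was named after its value was seen.

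Synthesis genes went both ways, with 2 higher and 2 lower among 15 above the filter. Dgat1, which catalyses the same reaction as Dgat2 and is unrelated to it in sequence, had 9.74 and 9.75 on the KO arrays and 9.04 and 8.98 on the WT arrays. Its difference of 0.74 ± 0.11 (adjusted p = 0.119) compares with 0.72 for Dgat2, but its KO arrays were 0.02 apart, where those of Dgat2 were 0.91 apart. Fasn, fatty acid synthase, had 10.58 and 10.65 on the KO arrays and 11.22 and 11.04 on the WT arrays, a difference of -0.51 ± 0.13 (adjusted p = 0.172). The 2 others at the unadjusted threshold, named after their values were seen, were Elovl6, a fatty acid elongase (0.55 ± 0.19), and Agpat2, an acyltransferase of triglyceride synthesis (-0.62 ± 0.19).

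Of the adipokine genes 4 were above the filter and none reached an unadjusted p of 0.05. Retn, which encodes resistin, had 5.96 and 5.87 on the KO arrays and 5.99 and 5.99 on the WT arrays. Among 6 transcription factor genes none reached it either and no pair of groups was free of overlap. Pparg, named for its role as the partner of Cebpa, had 6.53 and 6.75 on the KO arrays and 6.55 and 6.47 on the WT arrays. Of 5 brown fat genes none reached it. Ppargc1a, a coactivator of mitochondrial genes, had 9.16 and 10.08 on the KO arrays and 8.91 and 8.72 on the WT arrays, a difference of 0.81 ± 0.33 that was 1.27 without KO replicate 1 and 0.35 without KO replicate 2. Its second probe, below the filter, differed by -0.21. Cox8b, a respiratory chain subunit gene of brown fat and muscle, had 7.52 and 6.88 on the KO arrays and 6.81 and 6.52 on the WT arrays, a difference of 0.53 ± 0.26 that was 0.21 without KO replicate 1 and 0.86 without KO replicate 2. Ucp1, the uncoupling protein that defines brown fat, lay below the filter. Without WT replicate 2, which leaves 1 WT tumour, the genes named by rule again went both ways. Differences were then 1.89 for Plin4, 1.01 for Mgll, 0.90 for Ppargc1a, 0.76 for Dgat1 and 0.68 for Cox8b. They were -1.85 for Gpihbp1, -1.18 for Plin3, -0.78 for G0s2, -0.56 for Fabp5, -0.43 for Fasn and -0.08 for Retn.

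**Figure D5:**
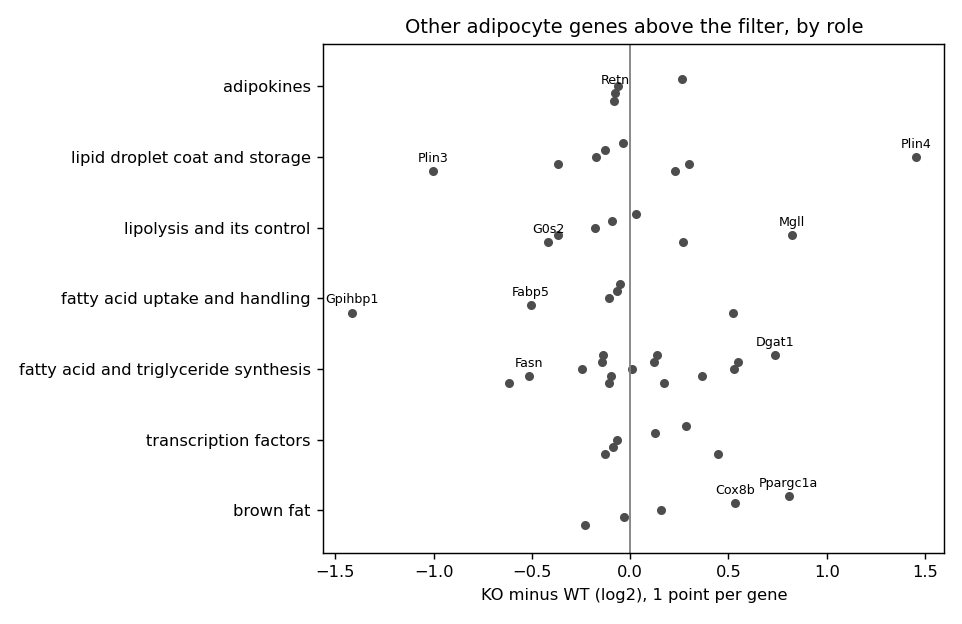
KO minus WT difference in log2 signal (horizontal axis) of the other adipocyte genes above the filter, 1 point per gene, in 7 role groups. Points lie on both sides of 0 in every group, from -1.42 for Gpihbp1 to 1.46 for Plin4.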

How the data were processed

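Expression was measured in 4 tumours on Illumina bead arrays. Per the labels' protocols, 100 ng of total RNA was amplified and biotin labelled with a TotalPrep kit, and no source used here names the scanner software. The authors deposited 2 tables of linear intensity: an unnormalized one, and one whose columns equal the rank-wise mean of the sorted unnormalized columns (quantile normalization), without background subtraction. No batch, detection p-value or depth is given, and 4 arrays limit the precision.

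Log2 of the deposited normalized intensity was fitted with limma 3.58.1 in R 4.3.3 (lmFit, eBayes, two-sided, KO minus WT, Benjamini-Hochberg over 27979 probes above the 40th percentile). The fit has 2 residual and 2.71 prior degrees of freedom, and its steps were tested on simulated data. An exact permutation test of 2 against 2 cannot go below 0.333 and was not run. Per the platform annotation, 29976 probes had 1 gene symbol, 10 had several and 16646 had none; 29921 were found in the RefSeq table. The rows of the unnormalized table, used for other scalings, were paired with probes through their 4 values: all 46632 matched within 0.001 (log2) and 11 rows were left over. Tables were handled with Python 3.11.15.

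Named were every member and Aoc3 probe and, in each role group, the 2 genes of smallest p whose groups did not overlap; others are said to be named for their role or after their values were seen. The rule also named the brightest markers of each cell type; totals over each list are given in their place. Members and lists were chosen with earlier results of these data known. Alternatives were 2 filters, normexp with an offset of 50, 2 scalings, other moderation, the median over a gene's probes, and leaving out each array.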

Additional observations from a re-analysis of the deposited data

How the results depend on the processing

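Of the 13 member probes, 8 had a value under all 10 alternatives and 5, which the stricter filter removed, under 9. In these fits 9 of 13 kept their sign and 4 did not: Adipoq, Scd1, the second Lpl probe and the second Cebpa probe. The last was -0.14 under 75th percentile scaling. When single arrays were left out, differences ran from -0.34 to 0.72 for Adipoq, from -0.53 to 0.13 for Scd1, from -0.33 to 0.14 for the second Lpl probe, and from -0.83 to 0.047 and -0.17 to 0.049 for the Aoc3 probes. The median over member probes was 0.63 with the filter at the 70th percentile, 0.55 under median scaling, and 0.039 to 0.72 without single arrays. All 11 other adipocyte genes named by rule kept their sign where they had a value (Retn had none with the stricter filter). Unadjusted calls among the other adipocyte genes were 10 higher and 0 lower under median scaling, against 5 and 5. Their list's median was -0.038 with no filter, 0.13 with the stricter filter, 0.10 and -0.10 under median and 75th percentile scaling, and -0.034 to -0.0017 without single arrays.

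Limma called 0 probes at an adjusted p under 0.05 (4568 unadjusted), 4 when the prior was robust and followed intensity, and 0 to 2082 without single arrays (1716 to 7025 unadjusted). It was 2082 without WT replicate 2 and 1193 without WT replicate 3, fits in which the KO pair alone gave the spread and the lone WT tumour was assumed to vary like it. These counts included 0 to 2 member probes and 0 to 7 other adipocyte genes. Scaling by the 75th percentile moved the median of all probes by -0.12. Of probes at an unadjusted p under 0.05, 56.8% were higher in KO tumours, against 96.8% under median scaling and 68.6% without KO replicate 1. No paired analysis was possible because the groups share 1 replicate number only. Precision is limited: the intervals of the brightest Lpl, Cidea and Cebpa probes span over 2 log2 units, and 4 member probes lay below the filter.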
